A study of Homo sapiens with 36 samples.

Results

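The 47 genes described here are interferon response genes: sensors of foreign nucleic acid, transcription factors of the STAT and IRF families, and effectors that those factors induce. They were chosen by gene symbol and looked up in 3 expression tables of human leukaemia cell lines. All 47 had an entry among the 60642 genes of the K562 LMO2 degron table and among the 57820 genes of the HEL table, and 21 were among the 13707 genes of the K562 LDB1 shRNA table. A mean level of at least 1 FPKM over the 24 K562 degron-set libraries was reached by 21 of the 47 genes, and a mean of at least 1 CPM (a count scaled to a fixed library total) over the 9 HEL libraries by 43 of the 47. FPKM is corrected for sequencing depth and gene length, whereas CPM is not divided by gene length, so the same threshold is not the same RNA level in both.

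Cells sense viral RNA or DNA through proteins such as RIG-I, encoded by DDX58, and answer by secreting interferons. Interferons bind receptors whose JAK kinases activate STAT proteins, and a complex of STAT factors with IRF9 then binds a GAAA-containing element at the promoters of the induced genes. LMO2, LDB1 and TAL1 are known as parts of a DNA-binding complex of blood cell progenitors, and these genes are antiviral and inflammatory effectors in most cell types.

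The study reduced 3 members of that complex by 3 methods in K562 and HEL, which are human erythroleukaemia cell lines. In the first experiment, 2 K562 lines with an LMO2 degron, called degron line 1 and degron line 2, were set beside an LMO2 control line and parental K562 cells, untreated (day 0) or after 1 and 4 days in dTAGv1, a compound that directs tagged proteins to degradation. The dose is labelled 750 uM, a unit that was not checked. Each of the 12 line and day groups had 2 biological replicates, which gave 24 libraries. The labels state neither what the LMO2 control line carries nor whether a line is 1 clone. In the second experiment, HEL cells were electroporated with TAL1 siPool 1, TAL1 siPool 2 or a non-targeting siPool, with 3 replicates of each. In the third, K562 cells carried LDB1 shRNA 1, LDB1 shRNA 2 or a control shRNA, with 1 library each. The labels do not say whether replicates were separate cultures, so the p-values below measure only the spread between these libraries, which may be technical.

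The degron-set libraries held about 17200000 to 26300000 reads, recovered from the FPKM steps, and the HEL libraries 15869619 to 27029836 counts. TAL1 averaged 1.34 ± 0.07 log2 units lower with both siPools than with the non-targeting pool (SE, edgeR adjusted p = 6.31e-07). LDB1 stood at 62.4 and 69.6 TPM with the LDB1 shRNAs and at 468 TPM with the control shRNA. LMO2 RNA was 128 to 271 FPKM in the degron lines, 212 to 443 FPKM in the LMO2 control line and 31.2 to 46.6 FPKM in parental cells, and a degron acts on the protein, so RNA does not check its loss. The 8 erythroid markers summed to 317 to 393 FPKM in the degron lines on day 4, 429 to 525 FPKM on day 1 and 689 to 1036 FPKM on day 0, against 626 to 1206 FPKM in the control lines. In HEL they summed to 2593 to 3019 CPM with siPool 1, 3109 to 3490 CPM with siPool 2 and 4569 to 4643 CPM with the non-targeting pool. Both cell lines thus carried the markers of their label. Not every marker followed the sums. EPOR went the other way in the degron lines, at 15.4 to 19.6 FPKM on day 4 and 9.63 to 14.5 FPKM on day 0. In HEL, GATA1, EPOR and TFRC with siPool 2 overlapped the non-targeting pool. The part that the shift in the sums plays in the values below was not tested.

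The promoters of the members show the element by which interferon factors are known to bind. RefSeq promoters of build GRCh38.p14, 300 bases from 250 before to 50 after a gene's start, matched 36 of the 47 genes and gave 44 windows. The motif searched on both strands was 2 copies of GAAA in the same orientation with any 2 bases between them. It stood in 29 of the 44 windows (65.9%), against 1255 of 35116 windows of all genes (3.57%). BST2, LGALS3BP and IFIT3 are shown in full because BST2 and LGALS3BP rose in both K562 degron and HEL knockdown cells and IFIT3 had at least 2-fold higher levels in the LDB1 knockdown. The BST2 window is chr19:17405581-17405880 on the minus strand, that of LGALS3BP is chr17:78979874-78980173 on the minus strand, and that of IFIT3, the second of 2 in the table, is chr10:89332279-89332578 on the plus strand. Letters run 5′ to 3′ along the gene's strand, and capitals mark the motif in either orientation.
BST2: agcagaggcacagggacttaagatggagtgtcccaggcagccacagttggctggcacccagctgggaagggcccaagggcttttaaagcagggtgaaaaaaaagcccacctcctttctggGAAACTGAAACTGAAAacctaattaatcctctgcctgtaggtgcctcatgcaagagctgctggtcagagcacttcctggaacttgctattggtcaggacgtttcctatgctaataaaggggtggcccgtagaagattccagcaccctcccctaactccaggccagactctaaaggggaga
LGALS3BP: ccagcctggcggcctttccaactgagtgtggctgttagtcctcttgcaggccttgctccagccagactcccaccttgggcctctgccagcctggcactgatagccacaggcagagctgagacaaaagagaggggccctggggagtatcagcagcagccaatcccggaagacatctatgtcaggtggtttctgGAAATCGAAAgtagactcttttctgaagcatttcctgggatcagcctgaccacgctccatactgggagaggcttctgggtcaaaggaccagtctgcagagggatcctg
IFIT3: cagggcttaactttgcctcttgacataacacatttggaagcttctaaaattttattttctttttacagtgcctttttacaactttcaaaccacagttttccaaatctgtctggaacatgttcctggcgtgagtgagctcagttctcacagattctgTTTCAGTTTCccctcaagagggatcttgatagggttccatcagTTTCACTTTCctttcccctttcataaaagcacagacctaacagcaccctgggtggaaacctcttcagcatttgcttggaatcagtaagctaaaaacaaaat
In BST2 the 2 matches overlap and share 4 bases, 124 and 130 bases before the start. LGALS3BP held 1 match, 58 bases before its start, and the other IFIT3 window also held 2 matches.

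A 20-base site is given for each of 8 further members, to show the element among genes that behaved differently. DTX3L, SAMD9 and TRIM21 rose in the degron lines on day 4 and IFITM1 fell. GBP1 rose with siPool 1 in HEL. PARP14 and RSAD2 were higher and ISG15 was lower in the LDB1 knockdown. They lie at chr3:122564327-122564346 (DTX3L, plus strand), chr7:93118101-93118120 (SAMD9, minus), chr11:4393671-4393690 (TRIM21, minus), chr11:314029-314048 (IFITM1, plus), chr1:89065321-89065340 (GBP1, minus), chr3:122680805-122680824 (PARP14, plus), chr2:6877627-6877646 (RSAD2, plus) and chr1:1013385-1013404 (ISG15, plus).
DTX3L: gaagcGAAACTGAAActttg
SAMD9: gaaatGAAACTGAAAccaaa
TRIM21: gagcgGAAACTGAAAgtgaa
IFITM1: tctgaGAAACTGAAAcgaca
GBP1: agtacTTTCAGTTTCatatt
PARP14: gaaacGAAAGCGAAAgagtc
RSAD2: tcaacTTTCAGTTTCacatg
ISG15: aaaggGAAACCGAAActgaa
The DTX3L site is also the PARP9 site, since these genes start head to head and their windows overlap. Of the members called higher in the degron lines on day 4, 13 had a window and 7 of those held the motif, as did 19 of 23 other members with a window. Called members without these letters in their windows were DDX58 (listed as RIGI), IFI16, STAT2, IRF1, IFI35 and SAMD9L. IRF2, IRF7, IFIT2, IFITM2, MX2, OAS2, OASL, GBP2, GBP5, USP18 and TRIM22 had no match by symbol. A match is a stretch of letters and not a measured binding site.

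The set past the threshold differed between K562 and HEL, although 1 FPKM and 1 CPM are unlike thresholds. At a mean of 1 FPKM or 1 CPM, 21 members were expressed in both lines, 22 in HEL but not K562, 0 in K562 but not HEL, and 4 in neither (IFI44L, ISG20, OAS2 and OASL). The counts of the 2 lines are thus not on one scale. IRF9, counted in HEL only, had a median of 47 reads per K562 library and 29 to 61 counts in HEL. SAMD9, also counted in HEL only, had a median of 103 reads per K562 library. Of the 6 Mx and OAS genes, whose products block viral replication and make the messenger that activates RNase L, 0 reached 1 FPKM in K562 and 4 reached 1 CPM in HEL. MX2 was at most 0.0162 FPKM in K562 and held 61.7 to 77.4 CPM over the 9 HEL libraries. OAS3 was 0.0336 to 0.328 FPKM in the degron lines and 0.0685 to 0.905 FPKM in the control lines, and held 52.8 to 63.8 CPM in HEL. In K562, 16 of the 47 genes had a mean under 0.1 FPKM. The mean over the degron lines reached 1 FPKM for 17 members on day 0, 21 on day 1 and 25 on day 4, against 15 members over the control lines on all days, 17 in the LMO2 control line and 14 in parental cells. In HEL the number was 43 with siPool 1, 42 with siPool 2 and 41 with the non-targeting pool. How many of all genes reached these thresholds in each group was not counted, so these numbers have no background.

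**Figure D1:**
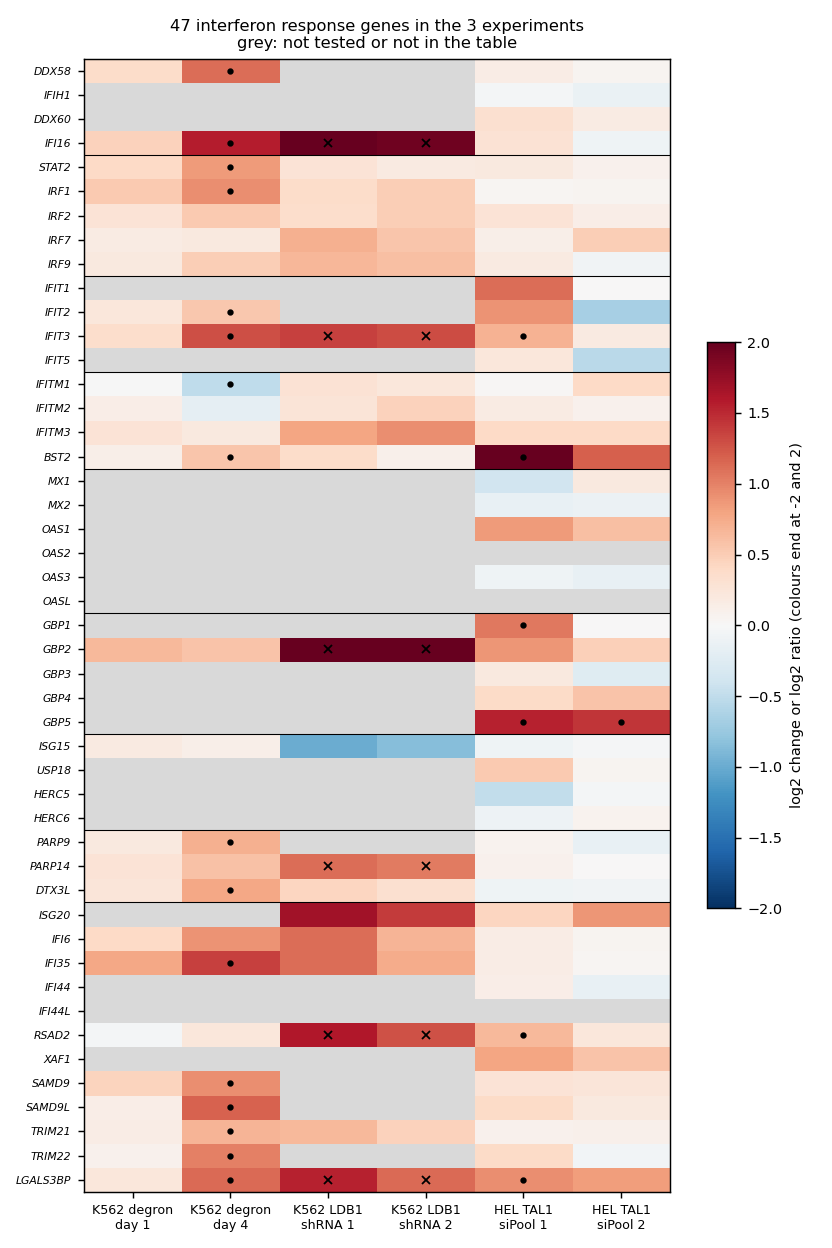
Change of each of the 47 genes, grouped by role, as log2 change (K562 degron and HEL) or log2 ratio (LDB1 shRNAs), with colour from blue (lower) to red (higher). Dots mark an adjusted p under 0.05 and crosses at least 2-fold in both LDB1 shRNA libraries. The day 4 dots of IFI16, IFIT2, SAMD9L and TRIM22 are not read, because of how these genes passed the filter. The day 4 degron column has 15 dots on red and 1 on blue, and the Mx and OAS genes are grey in K562.

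The first question was what LMO2 degradation did to these genes over time. It was addressed by the degron-specific change, which is the change from day 0 averaged over both degron lines minus that over the LMO2 control and parental lines, on the log2(FPKM + 1) scale. This scale understates the change of low genes. A filter of at least 1 FPKM in at least 2 of the 24 libraries left 26 of the 47 members to be tested, and 4 of them (IRF9, IFIT2, SAMD9L and TRIM22) passed it through the day 4 degron libraries alone. Such a gene had to differ, so their day 4 tests are not read and their levels are given as a description. IFI16 passed through degron libraries of days 1 and 4 alone, so its tests of both days are not read either. The 21 others, among them MX1, OAS1, IFIT1, GBP5 and USP18, were too low to test.

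On day 1, 0 of the 26 tested members passed limma's moderated test, and 5 had an unadjusted p under 0.05 (IFI35, IRF1, GBP2, IFI16 and DDX58). Of these, IFI16 passed the filter through treated degron libraries alone, and GBP2 and DDX58 through degron libraries that include those of day 0. Among all genes 0.0261% were called higher and 0.0521% lower on that day. IFI35, an interferon-induced leucine zipper protein, averaged 0.78 ± 0.23 log2 units higher (SE, adjusted p = 0.296), and with the replicate number as a block its adjusted p was 0.0271, which made it the 1 member called in that fit, where 0.463% of all genes were called higher and 0.625% lower. With the filter on control-line libraries described below, 0 of 17 members were called, and 0.00717% of all genes were higher and 0.0502% lower. The median degron-specific change on day 1 was 0.23 over the tested members and 0.03 over all 15348 genes tested.

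By day 4, a set of sensors, transcription factors and effectors stood higher in the degron lines, and IFITM1 stood lower. The count that does not depend on the day 4 degron libraries set the filter on the 12 control-line libraries alone, an alternative chosen after seeing the data. Then 17 members were tested, 7 were called higher (IRF1, BST2, DTX3L, IFI35, SAMD9, TRIM21 and LGALS3BP) and 1 lower (IFITM1), against 9.74% and 8.65% of all genes, and the median change was 0.59 over these members and 0.03 over all genes. With the filter over all 24 libraries 26 members were tested, and 15 were called higher and 1 lower, where 11.6% and 8.18% of all genes were called. Those 15 include IFIT2, SAMD9L and TRIM22, and without them 12 of 22 members were called higher. The 12 still include IFI16, which passed through degron libraries of days 1 and 4 alone. They also include DDX58, IFIT3 and PARP9, which passed with degron libraries of day 0 and not on the control lines alone. With the replicate block, which pairs libraries of one number, 20 of the 26 were called higher and 1 lower, where 20.1% and 15.6% of all genes were called. The 5 members added by the block were IRF9, which passed the filter in the same way as IFIT2, SAMD9L and TRIM22, and GBP2, IFI6, PARP14 and IRF2. Of these, GBP2 passed the filter through degron line 2 libraries alone. All 15 kept their call with the block, among them STAT2, DTX3L and SAMD9. The checks below that leave out a library were run without the block.

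**Figure D2:**
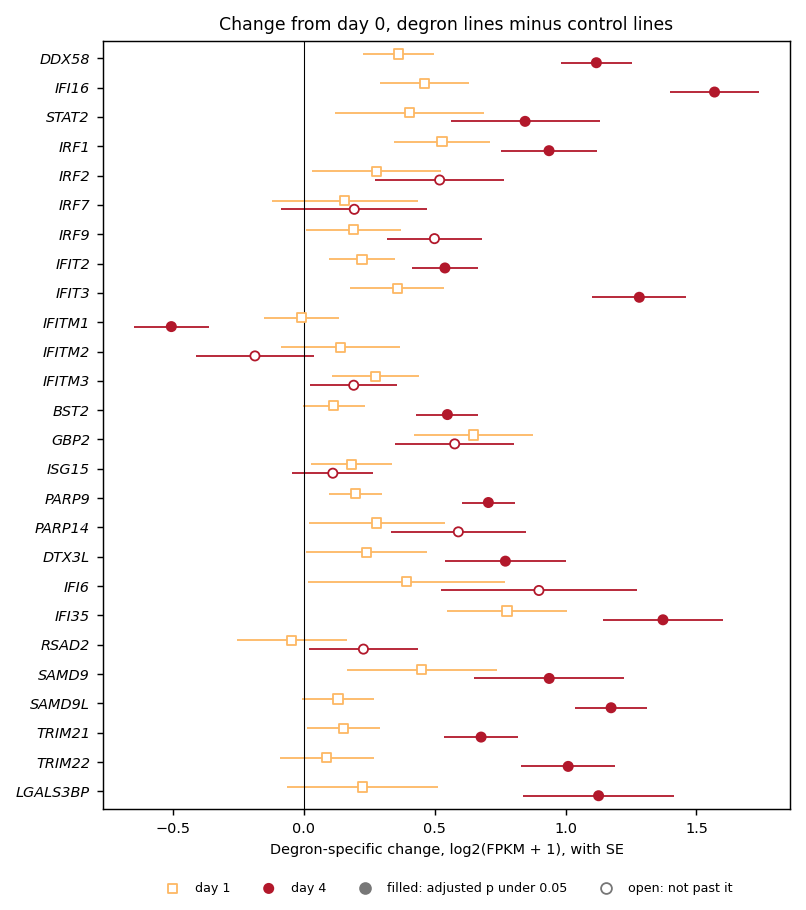
Degron-specific change of the 26 tested members on day 1 (squares) and day 4 (circles), in log2(FPKM + 1) with bars of 1 SE. Filled symbols have an adjusted p under 0.05, which for IFI16, IFIT2, SAMD9L and TRIM22 is not read because of how they passed the filter. All day 1 symbols are open, and on day 4 IFI16 lies farthest to the right at 1.57 and IFITM1 farthest to the left at -0.51.

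Among the 4 sensors, DDX58 rose, and IFI16 was also higher on day 4 but passed the filter through treated degron libraries alone. DDX58, the RIG-I sensor of viral RNA, was 1.16 to 1.45 FPKM in the degron lines on day 0, 1.46 to 2.29 FPKM on day 1, and 3.84 and 2.88 FPKM in degron line 1 and 5.21 and 4.37 FPKM in degron line 2 on day 4. In the 12 control-line libraries it ranged from 0.437 to 0.829 FPKM (median 0.568). The degron lines lay above every control-line library already on day 0, and day 4 lay above both earlier days. Its day 4 change was 1.12 ± 0.14 (SE, adjusted p = 7.58e-05). DDX58 passed the filter with degron libraries, those of day 0 included, and not on the control lines alone. IFI16, a sensor of DNA, was 0.300 to 0.763 FPKM in the degron lines on day 0 and 0.337 to 2.11 FPKM on day 1. By day 4 it reached 1.72 and 2.01 FPKM in degron line 1 and 4.78 and 6.80 FPKM in degron line 2, against 0.0441 to 0.626 FPKM (median 0.223) in the control lines. All 4 day 4 values lay above the control lines, with degron line 2 the higher. The IFI16 change was 1.57 ± 0.17 (SE), the largest among the tested members, and is given as a description because of how it passed the filter. The control-line values of both sensors rest on few reads, since the lowest library held 52 reads of DDX58 and 6 of IFI16. The other sensors, IFIH1 (MDA5) and DDX60, were at most 0.502 FPKM in every K562 library and were not tested.

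All 5 transcription factors passed the filter, and IRF1 and STAT2 rose on day 4. IRF1, a factor that interferon-gamma signalling induces, was 0.874 to 1.25 FPKM in the degron lines on day 0 and 1.66 to 3.18 FPKM on day 1. On day 4 it was 2.42 and 3.01 FPKM in degron line 1 and 3.07 and 3.30 FPKM in degron line 2, against 0.759 to 1.68 FPKM (median 1.16) in the control lines. The day 4 values did not overlap the control lines, whereas the lowest day 1 value did. The day 4 change was 0.94 ± 0.18 (SE, adjusted p = 0.00241), and on day 1 it was 0.53 ± 0.18 (adjusted p = 0.426). STAT2, the partner of IRF9 in the type I interferon complex, was 13.3 and 11.4 FPKM in degron line 1 and 13.0 and 10.8 FPKM in degron line 2 on day 4, against 3.90 to 8.33 FPKM (median 5.32) in the control lines. These 4 values lay above the control lines and above the 4.46 to 6.82 FPKM of the degron lines on day 0. STAT2 rose by 0.85 ± 0.28 (SE, adjusted p = 0.0494), a call that held without 5 of the 24 libraries left out in turn (degron line 1 day 0 replicate 1, LMO2 control day 0 replicate 2, LMO2 control day 4 replicate 1, parental day 0 replicate 2 and parental day 4 replicate 1). Without each of the other 19 its adjusted p was 0.0503 to 0.124, and it was not called with the filter on control-line libraries. IRF9 was 1.17, 1.26, 1.28 and 1.11 FPKM in the day 4 degron libraries and 0.259 to 0.740 FPKM in the control lines, without overlap. IRF2 gave 0.52 ± 0.25 (adjusted p = 0.157, 0.00819 with the block) and IRF7, the factor that drives interferon-alpha genes, gave 0.19 ± 0.28 (adjusted p = 0.678).

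Of the 4 IFIT genes, whose products bind viral RNA that lacks a host cap, IFIT3 rose, IFIT2 passed the filter through degron line 1 on day 4 only, and IFIT1 and IFIT5 were too low to test. IFIT3 was 1.52 and 1.24 FPKM in degron line 1 and 0.540 and 0.201 FPKM in degron line 2 on day 0. Its day 4 levels were 6.50 and 6.02 FPKM in degron line 1 and 1.96 and 1.63 FPKM in degron line 2, against 0.378 to 1.20 FPKM (median 0.575) in the control lines. Both degron lines lay above the control lines on day 4, and degron line 1 was the higher on all days. The change was 1.28 ± 0.18 (SE, adjusted p = 0.000228). IFIT3 passed the filter with degron libraries, those of day 0 included, and not on the control lines alone. IFIT2 was 1.37 and 1.32 FPKM in degron line 1 and 0.347 and 0.251 FPKM in degron line 2 on day 4, against 0 to 0.257 FPKM (median 0.0916) in the control lines. Only degron line 1 stood clear of the control lines, since the lower degron line 2 value lay just inside their range. IFIT1 was 1.23 and 0.736 FPKM in degron line 1 on day 4 and at most 0.252 FPKM in the control lines. IFIT genes lie together and share sequence, so reads that fit several of them could be placed uncertainly.

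The 4 membrane restriction genes, which keep viruses from entering or leaving the cell, moved in both directions. IFITM1, BST2 and IFITM2 had the highest FPKM of the members in K562, and IFITM3, at 9.67 to 46.4 FPKM, overlapped ISG15. IFITM1, which blocks virus fusion, was 175 to 238 FPKM in the degron lines on day 0 and 176 to 283 FPKM on day 1. Its day 4 levels were 132 and 112 FPKM in degron line 1 and 188 and 192 FPKM in degron line 2, against 313 to 408 FPKM (median 373) in the control lines. Every degron library of every day lay below every control library. The degron-specific change on day 4 was -0.51 ± 0.14 (SE, adjusted p = 0.0212), and its adjusted p was 0.0542 without replicate 2 of degron line 1 on day 4 and 0.0516 without replicate 2 of parental cells on day 4. BST2, or tetherin, which holds budding virus at the cell surface, was 211 and 219 FPKM in degron line 1 and 210.3 and 223 FPKM in degron line 2 on day 4. In the degron lines it was 142 to 148 FPKM on day 0, and in the control lines 105 to 162 FPKM (median 134). The day 4 values lay above all others, and BST2 rose by 0.55 ± 0.12 (SE, adjusted p = 0.00477). IFITM2 (-0.19 ± 0.23, adjusted p = 0.613) and IFITM3 (0.19 ± 0.17, adjusted p = 0.460) did not pass. IFITM1, IFITM2 and IFITM3 are near-identical in part, so their reads could be split between them.

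The ADP-ribosylation genes were tested as a group of 3, and PARP9 and its partner DTX3L rose. PARP9 and DTX3L form a complex that modifies histones and other proteins in interferon-treated and DNA-damaged cells. PARP9 was 0.828 to 1.17 FPKM in the degron lines on day 0, 1.15 to 1.56 FPKM on day 1, and 2.06 and 1.99 FPKM in degron line 1 and 2.57 and 2.67 FPKM in degron line 2 on day 4. In the control lines PARP9 was 0.415 to 0.785 FPKM (median 0.570), below every degron library. Its day 4 change was 0.71 ± 0.10 (SE, adjusted p = 0.000283). PARP9 passed the filter with degron libraries, those of day 0 included, and not on the control lines alone. DTX3L was 4.99 and 4.16 FPKM in degron line 1 and 5.63 and 5.87 FPKM in degron line 2 on day 4, against 0.957 to 3.17 FPKM (median 1.75) in the control lines, without overlap. DTX3L rose by 0.77 ± 0.23 (SE, adjusted p = 0.0297). Its adjusted p was 0.0502 to 0.0786 without each of 9 libraries, which were degron line 1 day 0 replicate 2 and day 4 replicate 1, degron line 2 day 0 replicate 2 and both day 4 replicates, LMO2 control day 0 replicate 1 and day 4 replicate 2, and parental day 0 replicate 1 and day 4 replicate 2. PARP14 gave 0.59 ± 0.26 (adjusted p = 0.125, 0.00478 with the block). PARP9 and DTX3L start head to head and whether counting used strand is not given, so reads between them cannot be told apart.

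**Figure D3:**
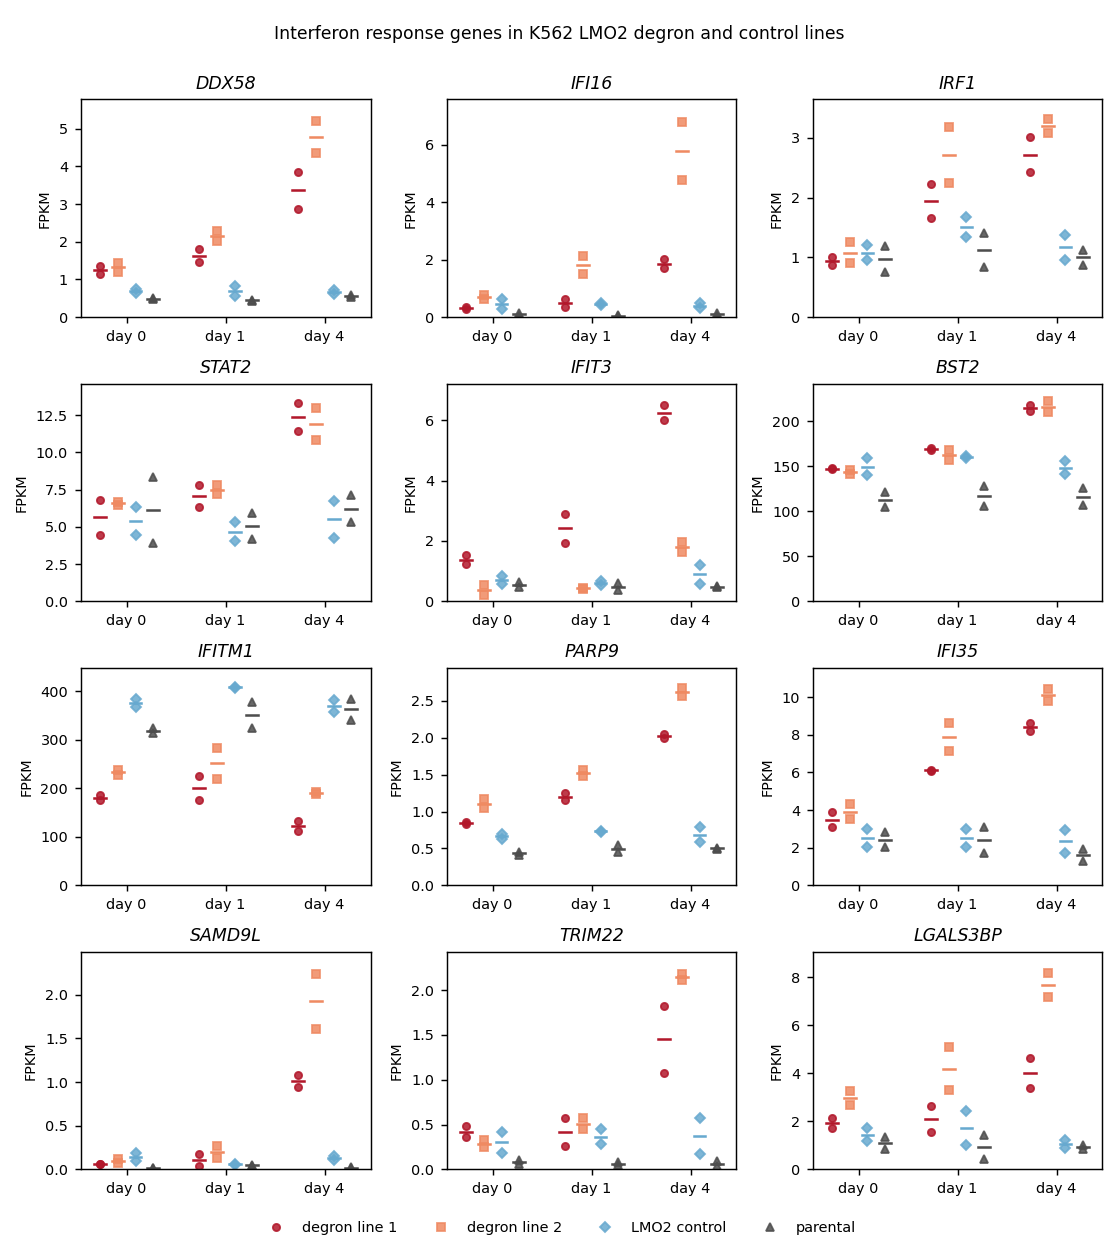
FPKM of 12 members in every K562 library of the degron set, by day, with degron lines 1 and 2 in red and orange and the LMO2 control and parental lines in blue and grey; points are libraries and bars are means of 2. The day 4 degron points stand above the control points in each panel but IFITM1, where 112 to 192 FPKM in the degron lines lies below 313 FPKM, the lowest control value. The 12 were picked from the members called on day 4. Of the called members not shown, SAMD9 and IFIT2 overlapped the control lines and DTX3L and TRIM21 did not. IFI16, SAMD9L and TRIM22 passed the filter through treated degron libraries alone.

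Of the 12 other effectors, 6 passed the filter without the day 4 degron libraries, and IFI35, TRIM21, LGALS3BP and SAMD9 rose on day 4. IFI35 was 3.09 to 4.30 FPKM in the degron lines on day 0 and 6.08 to 8.63 FPKM on day 1. Its day 4 levels were 8.22 and 8.63 FPKM in degron line 1 and 9.80 and 10.5 FPKM in degron line 2, against 1.30 to 3.12 FPKM (median 2.05) in the control lines. All degron libraries of days 1 and 4 lay above the control lines, and the day 4 change was 1.37 ± 0.23 (SE, adjusted p = 0.000811). TRIM21, which recognises antibody-coated virus inside the cell, was 8.89 and 10.5 FPKM in degron line 1 and 15.8 and 17.6 FPKM in degron line 2 on day 4, against 4.03 to 8.19 FPKM (median 6.03) in the control lines. The groups did not overlap, and TRIM21 rose by 0.68 ± 0.14 (SE, adjusted p = 0.0035). TRIM22 was 1.82 and 1.08 FPKM in degron line 1 and 2.18 and 2.11 FPKM in degron line 2 on day 4, against 0.0339 to 0.576 FPKM (median 0.134) in the control lines. Its day 4 levels lay above every control library, and it passed the filter through them alone.

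LGALS3BP, a secreted glycoprotein that binds galectins, was 1.72 to 3.27 FPKM in the degron lines on day 0. On day 4 it was 4.65 and 3.37 FPKM in degron line 1 and 8.16 and 7.19 FPKM in degron line 2, against 0.443 to 2.41 FPKM (median 1.09) in the control lines. The day 4 values lay above both, and LGALS3BP rose by 1.13 ± 0.29 (SE, adjusted p = 0.0128). SAMD9L, an antiviral protein that also restrains cell growth, was 0.0617 to 0.113 FPKM in the degron lines on day 0. On day 4 it was 0.941 and 1.08 FPKM in degron line 1 and 1.61 and 2.24 FPKM in degron line 2, against 0.0122 to 0.187 FPKM (median 0.0518) in the control lines. Its lowest K562 library held 2 reads and its highest 344. The day 4 levels of SAMD9L stood clear of all control libraries, and it too passed the filter through them alone. SAMD9, its neighbour and paralog, was 1.75 and 2.38 FPKM in degron line 1 and 1.78 and 2.70 FPKM in degron line 2 on day 4. The SAMD9 levels overlapped the LMO2 control line at 0.208 to 2.26 FPKM but not parental cells at 0.0381 to 0.213 FPKM. SAMD9 rose by 0.94 ± 0.29 relative to day 0 and to the control lines (SE, adjusted p = 0.0314). Its adjusted p was 0.0515 to 0.0783 without each of 10 libraries, which were degron line 1 day 0 replicates 1 and 2 and day 4 replicate 2, degron line 2 day 0 replicate 1 and day 4 replicate 2, LMO2 control day 0 replicates 1 and 2 and day 4 replicate 1, and parental day 0 replicate 2 and day 4 replicate 1. Of the tested effectors that did not pass, IFI6, a mitochondrial protein that limits cell death, gave 0.90 ± 0.38 (adjusted p = 0.108, 0.00757 with the block) and RSAD2, or viperin, gave 0.23 ± 0.21 (adjusted p = 0.490).

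GBP2 and ISG15, the highest members per length of the GBP family and the ISG15 system in K562, did not pass on day 4. GBP2, a GTPase that attacks the vacuoles of intracellular pathogens, was 0.259 and 0.119 FPKM in degron line 1 and 4.48 and 3.55 FPKM in degron line 2 on day 4, against 0.0292 to 0.523 FPKM (median 0.232) in the control lines. In degron line 2 it was 1.91 and 1.49 FPKM on day 0 and 6.75 and 3.13 FPKM on day 1, so that the high values belonged to degron line 2 on every day. The day 4 change of GBP2 was 0.58 ± 0.23 (SE, adjusted p = 0.0881, 0.0219 with the block). GBP2 passed the filter through degron line 2 libraries alone. ISG15, a ubiquitin-like protein that is attached to new proteins, was 18.2 and 17.5 FPKM in degron line 1 and 12.2 and 16.9 FPKM in degron line 2 on day 4, within the 9.87 to 23.4 FPKM (median 13.6) of the control lines. Its change was 0.11 ± 0.15 (SE, adjusted p = 0.664). Of the ISG15 system only ISG15 was tested in K562, since USP18, HERC5 and HERC6 were too low.

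The degron lines were also fitted one at a time. Alone against the control lines, degron line 1 had 10 members higher and 1 lower on day 4, where 5.81% and 3.30% of all genes were called, and degron line 2 had 12 higher and 0 lower, where 7.68% and 6.37% were called. IFI16, SAMD9L and TRIM22 are in both counts, IFIT2 in that of degron line 1 and GBP2 in that of degron line 2. IFI16 rose by 2.01 ± 0.21 in degron line 2 and by 1.13 ± 0.21 in degron line 1, and IFIT3 by 1.00 ± 0.22 and 1.57 ± 0.22 in the same order. The test of degron line 2 minus degron line 1 called 0 of 26 members, where 0.00652% of all genes were called in each direction, although 5 members had an unadjusted p under 0.05. IFI16 had the largest difference, 0.88 ± 0.24 (adjusted p = 0.737). With the block 0 members were called, where 0.00652% of all genes were higher and 0.0195% lower. In one line alone, several calls of the pair were not made. These were LGALS3BP (adjusted p = 0.115) and TRIM21 (adjusted p = 0.0769) in degron line 1, and IFIT2 and IFITM1 (adjusted p = 0.184) in degron line 2. STAT2 was called in neither line (adjusted p = 0.0966 in degron line 1 and 0.205 in degron line 2), nor was DTX3L (0.0954 and 0.101) or SAMD9 (0.0954 and 0.108). GBP2, not called over the pair, was called in degron line 2 (adjusted p = 0.0329). It passed the filter through degron line 2 libraries alone, so that call is given as a description.

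The control lines gave the background of dTAGv1 and time without a degron. Neither day 1 nor day 4 minus day 0 called a member or any other gene there, so that 0% of all genes were called, with 1 member (TRIM21, day 1) and 0 members at an unadjusted p under 0.05, and 657 and 509 genes in all. The median member change was -0.02 on day 1 and 0.02 on day 4, as against -0.02 and 0.03 over all genes.

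Before any dTAGv1, the degron lines already differed from the control lines at 6 of the 26 tested members, and 10.6% of all genes were called higher and 6.14% lower. IFI6 (1.00 ± 0.27, adjusted p = 0.0173) and RSAD2 (0.54 ± 0.15, adjusted p = 0.0210) were higher in the degron lines on day 0 than in the mean of the control lines. RSAD2 was then 0.972 to 2.09 FPKM in the degron lines, 1.76 and 1.28 FPKM in the LMO2 control line and 0.148 and 0.170 FPKM in parental cells. The degron lines thus stood above parental cells only. IFI6 was 4.09 to 10.3 FPKM in the degron lines, 4.28 and 3.36 FPKM in the LMO2 control line and 3.62 and 1.15 FPKM in parental cells. DDX58 (0.52 ± 0.10) and PARP9 (0.35 ± 0.07) were also called higher. Both passed the filter through degron libraries alone, so these 2 tests are not read. They are not among the members tested with the filter on control-line libraries. IFITM3 (-0.89 ± 0.12, adjusted p = 9.89e-05) and IFITM1 (-0.75 ± 0.10, adjusted p = 0.00012) were lower. With the replicate block 12 members were called higher and 2 lower, where 17.9% and 12.9% of all genes were called, and with the filter on control-line libraries 2 higher and 2 lower, where 9.78% and 6.59% were called. The RSAD2 and IFI6 calls were lost without replicate 1 of degron line 1 or of degron line 2, or replicate 2 of the LMO2 control line, all of day 0, with adjusted p from 0.0643 to 0.0878, and the IFI6 call also without parental replicate 2 at 0.0727. These values set the starting level from which the day 4 changes were taken.

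The LMO2 control line itself differed from parental cells, averaged over the 3 days. Of the 26 tested members 9 were higher and 1 lower in the LMO2 control line, where 6.49% and 4.05% of all genes were called. RSAD2 was 0.746 to 2.32 FPKM in the LMO2 control line and 0.127 to 0.288 FPKM in parental cells, a difference of 1.14 ± 0.12 (SE, adjusted p = 1.49e-05). SAMD9 was higher by 1.06 ± 0.16 (adjusted p = 0.000604), and ISG15 by 0.60 ± 0.09 (adjusted p = 0.000373). IFITM3 was 11.95 to 17.8 FPKM in the LMO2 control line and 36.0 to 46.4 FPKM in parental cells, without overlap, and the difference was -1.53 ± 0.10 (SE, adjusted p = 6.16e-08). The degron lines, at 9.67 to 19.5 FPKM of IFITM3, overlapped the LMO2 control line and not parental cells. BST2, TRIM21, IFI16, DTX3L, IFI6 and PARP9 were the other members that were higher, by 0.20 to 0.73. With the block, which added TRIM22, 10 were called higher and 1 lower (12.5% and 8.18% of all genes), and with the filter on control-line libraries 7 and 1 (6.75% and 4.39%). Leaving out replicate 1 of the LMO2 control line on day 0 left 6 members called. The PARP9 call held in 1 of 24 libraries left out in turn (LMO2 control day 4 replicate 2), and the IFI6 call in 9 of 24. The IFI16 call was lost without LMO2 control day 0 replicate 1 (adjusted p = 0.0550), and the DTX3L call without LMO2 control replicate 1 of any day or parental replicate 2 of any day (adjusted p from 0.0528 to 0.0644).

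The monocyte marker LYZ was higher with the day 4 change. The 4 monocyte markers summed to 12.1 to 14.9 FPKM in the degron lines on day 0, 10.6 to 19.1 FPKM on day 1 and 31.0 to 57.4 FPKM on day 4, and to 3.23 to 11.1 FPKM in the control lines. LYZ accounted for nearly all of it, at 30.9 to 57.3 FPKM in the day 4 degron libraries and 3.16 to 11.0 FPKM in the control lines, while FCN1 was at 0 and CD14 at most 0.326 FPKM in the day 4 degron libraries. The T cell sum, carried by CD3D, was 54.0 to 107 FPKM in the degron lines on day 0, 85.2 to 151 FPKM on day 1 and 25.4 to 50.9 FPKM on day 4, against 7.27 to 41.7 FPKM in the control lines. The sum was lower on day 4 than on day 0 in the degron lines, without overlap, as was CD3D. CD3G and CD3E went the other way, with overlapping ranges. The CD3G median was 4.60 FPKM on day 0 and 7.04 FPKM on day 4 in the degron lines, against at most 0.462 FPKM in the control lines. The CD3E median was 0.118 FPKM on day 0 and 0.223 FPKM on day 4 in the degron lines. LCK was at 0 in all 4 day 4 degron libraries. In bulk RNA, fewer cells of a type and less RNA per cell cannot be told apart, and the part of these markers in the member changes was not tested.

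The interferon genes themselves were nearly silent. Of 9 ligand genes looked up, the highest K562 value was 0.180 FPKM, of IFNK, and IFNA1, IFNB1, IFNE and IFNW1 were at 0 in every K562 degron-set and HEL library. In HEL the highest count of any ligand was 5, of IFNL1, and 0 of 9 ligands passed the filter in either set.

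Beyond the 47 members, 69 genes of the interferon pathway were looked up in lists of receptors and kinases, sensing adaptors, antigen processing, further induced genes and feedback genes. Antigen processing gave the highest median change in the degron lines on day 4, at 0.60, with 5 of 7 tested genes higher and 0 lower, where 11.6% of all genes were called higher and 8.18% lower. PSMB10, an immunoproteasome subunit, was 11.7 to 19.8 FPKM in the degron lines on day 4 and 3.09 to 5.47 FPKM in the control lines, and rose by 1.34 ± 0.16 (SE, adjusted p = 6.59e-05). ERAP2, ERAP1 and B2M, the peptide trimmers and the light chain of MHC class I, rose by 0.60, 0.87 and 0.43. Of the sensing adaptors and kinases 4 of 9 tested genes were higher and 0 lower. TMEM173, which encodes the DNA-sensing adaptor STING, was 108 to 115 FPKM in the degron lines on day 4 and 10.8 to 22.9 FPKM in the control lines, and rose by 1.36 ± 0.30 (SE, adjusted p = 0.00502). The gap between these levels is larger than that change, because the degron lines already stood higher on day 0. ZC3HAV1, TRIM25 and IKBKE rose by 0.71, 0.59 and 1.11. With the block 7 of the 9 were higher, where 20.1% of all genes were.

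Among the 23 tested further induced genes 7 were higher and 2 lower on day 4 (12 and 3 with the block), where 11.6% and 8.18% of all genes were called (20.1% and 15.6% with the block). APOL1 was 38.6 to 56.8 FPKM in the degron lines on day 4 and 3.62 to 7.76 FPKM in the control lines, and rose by 1.22 ± 0.12 (SE, adjusted p = 1.95e-05). Here too the gap is larger than the change, because the degron lines already stood higher on day 0. APOL6 (1.22), TNFSF10 (1.01) and TDRD7 (0.67) rose as well. The 2 lower genes, named for that reason, were CMPK2 (-0.80) and LY6E (-0.86). CMPK2, a nucleotide kinase, was 11.3 to 17.3 FPKM in the degron lines on day 0 and 7.29 to 9.33 FPKM on day 4, in both cases above the 1.59 to 4.95 FPKM of the control lines. Of the 6 tested receptors and kinases IFNAR1 (0.47) and IFNGR1 (0.74) rose and 0 fell, and of the 6 tested feedback genes PIAS1 (0.53) and CISH (0.80) rose and 0 fell. The medians of these lists were 0.04 for receptors and kinases, 0.46 for feedback genes, 0.32 for further induced genes and 0.59 for sensing adaptors, against 0.06 over all genes.

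The second question was what TAL1 knockdown did to the same genes in HEL, where 44 of the 47 members passed the filter. GBP5, LGALS3BP and BST2 were higher with both siPools combined, the other 41 tested members did not pass, and 14 members had an unadjusted p under 0.05. Among all 16688 genes 1.20% were called higher and 0.821% lower by edgeR's quasi-likelihood test. With the replicate number as a block 13 members were called higher and 0 lower, where 7.12% and 7.48% of all genes were called. Whether HEL numbers pair the libraries is not settled, as described in the closing section. The median change was 0.13 over the tested members and -0.02 over all genes. The comparisons of siPool 1 and siPool 2 with the non-targeting pool share the 3 non-targeting libraries.

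GBP5, a GTPase of the guanylate-binding family that promotes inflammasome assembly, was 4.34, 7.46 and 8.58 CPM with siPool 1 and 5.99, 6.93 and 6.30 CPM with siPool 2, against 2.11, 2.14 and 2.78 CPM with the non-targeting pool. The 6 knockdown libraries lay above the 3 others, and GBP5 rose by 1.48 ± 0.22 (SE, adjusted p = 0.0041). LGALS3BP was 6.53, 6.97 and 7.34 CPM with siPool 1 and 5.40, 6.93 and 7.75 CPM with siPool 2, against 3.11, 3.46 and 4.45 CPM with the non-targeting pool, again without overlap. LGALS3BP rose by 0.88 ± 0.17 (SE, adjusted p = 0.0203). Its adjusted p was 0.0509 to 0.0965 without siPool 1 replicate 2 or 3, siPool 2 replicate 2 or non-targeting replicate 1 or 2. BST2 was 1.97, 1.78 and 1.85 CPM with siPool 1 and 0.552, 0.621 and 1.39 CPM with siPool 2, against 0.370, 0.470 and 0.214 CPM with the non-targeting pool. All BST2 values were low, with 39 to 45 counts per siPool 1 library and 5 to 11 per non-targeting library. BST2 rose by 1.80 ± 0.41 (SE, adjusted p = 0.0440), a call that held without siPool 2 replicate 1 and was lost without each of the other 8 libraries, at adjusted p from 0.0590 to 0.199.

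**Figure D4:**
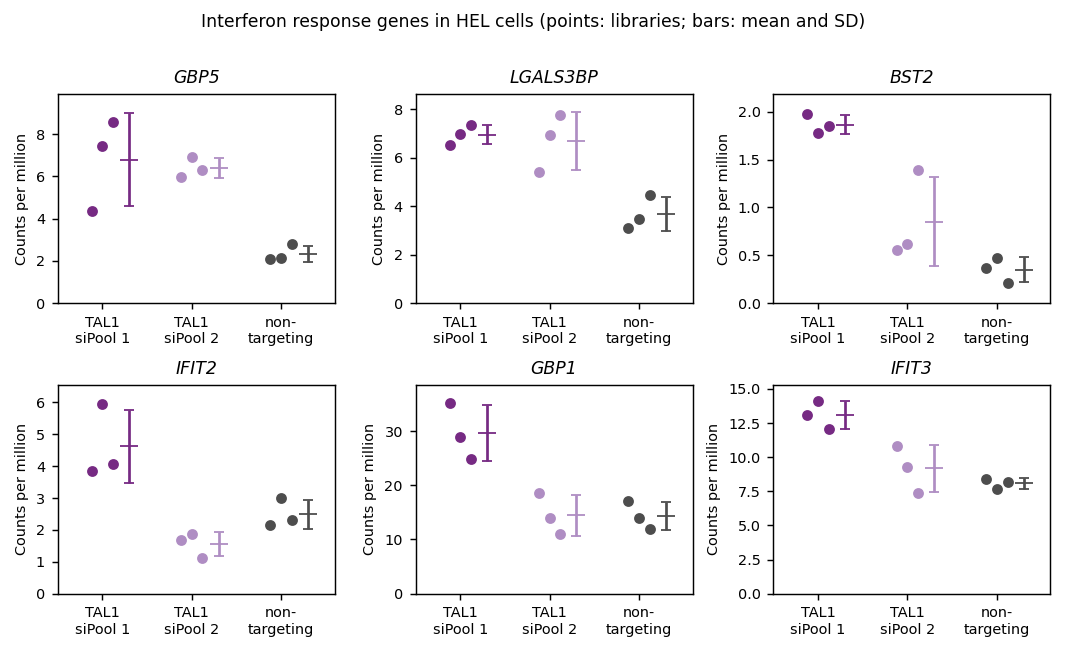
CPM of 6 members in the 9 HEL libraries with TAL1 siPool 1 (dark purple), TAL1 siPool 2 (light purple) and the non-targeting siPool (grey), with bars for mean and SD of 3. GBP5 and LGALS3BP are higher with both siPools, whereas IFIT2 and GBP1 with siPool 1 (at least 3.86 and 24.8 CPM) stand above the highest siPool 2 values of 1.86 and 18.5 CPM.

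With siPool 1 alone 6 members were called higher, where 2.56% of all genes were, and 1.65% were lower. These were GBP5 (1.53 ± 0.25, adjusted p = 0.00392), BST2 (2.39 ± 0.45, adjusted p = 0.00944), RSAD2 (0.64 ± 0.12, adjusted p = 0.00965), GBP1 (1.05 ± 0.21, adjusted p = 0.0126), LGALS3BP (0.92 ± 0.19, adjusted p = 0.0180) and IFIT3 (0.70 ± 0.16, adjusted p = 0.0300). Without non-targeting replicate 3 the number was 3. The IFIT3 call held without siPool 2 replicate 1 or 3 and was lost without each of the other 7 libraries (adjusted p from 0.0542 to 0.128). LGALS3BP was lost without non-targeting replicate 1 or 2 or siPool 1 replicate 2 or 3 (0.0594 to 0.0768), GBP1 without non-targeting replicate 2 (0.0554) or 3 (0.0703), and RSAD2 without non-targeting replicate 3 (0.0549). With siPool 2 alone GBP5 was the 1 member called (1.43 ± 0.25, adjusted p = 0.0155), where 0.491% of all genes were called higher and 0.563% lower. Its adjusted p was 0.0525 to 0.0854 without siPool 2 replicate 2 or 3 or non-targeting replicate 2 or 3, so that 0 members were called then. With siPool 2, LGALS3BP gave 0.84 ± 0.20 (adjusted p = 0.0666), BST2 1.20 ± 0.47 (adjusted p = 0.325) and GBP1 stood at 18.5, 13.9 and 11.0 CPM against 17.1, 14.0 and 11.9 CPM with the non-targeting pool. The median member change was 0.21 with siPool 1 and 0.06 with siPool 2.

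The siPools themselves differed at 2 members. IFIT2 was 3.86, 5.95 and 4.08 CPM with siPool 1 and 1.69, 1.86 and 1.13 CPM with siPool 2, and the non-targeting pool lay between at 2.15, 2.99 and 2.31 CPM. The difference of siPool 1 minus siPool 2 was 1.57 ± 0.28 (SE, adjusted p = 0.0104), at adjusted p of 0.0629 without siPool 1 replicate 2 and 0.0579 without siPool 2 replicate 3. GBP1, a guanylate-binding GTPase, was 35.2, 28.9 and 24.8 CPM with siPool 1 and 18.5, 13.9 and 11.0 CPM with siPool 2. The GBP1 difference was 1.04 ± 0.21 (SE, adjusted p = 0.0181), at 0.0514 to 0.102 without siPool 1 replicate 1 or 2 or siPool 2 replicate 2 or 3. Among all genes 1.68% were called higher and 1.08% lower in this comparison. TAL1 itself was 162, 190 and 182 CPM with siPool 1 and 177, 193 and 200.4 CPM with siPool 2, against 432, 470.1 and 490.2 CPM with the non-targeting pool, so the 2 siPools lowered it to overlapping levels. The 4 monocyte markers summed to 37.9 to 38.8 CPM with siPool 1, 26.3 to 26.8 CPM with siPool 2 and 27.5 to 29.8 CPM with the non-targeting pool, nearly all from LYZ with FCN1 at 0, and their part in the difference was not tested.

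In HEL the other role groups gave few calls in the fit without the block. The 4 sensors and 5 transcription factors had 0 members called with both siPools together, and IFI16, the sensor with the highest count, was 296, 338 and 332 CPM with siPool 1 and 277, 246 and 239 CPM with siPool 2, against 243, 271 and 280.4 CPM with the non-targeting pool. MX2, a nuclear envelope protein that blocks HIV, was 62.6, 66.6 and 68.1 CPM with siPool 1 and 61.7, 73.0 and 71.0 CPM with siPool 2, against 67.4, 74.2 and 77.4 CPM with the non-targeting pool. HERC5, the ligase that attaches ISG15, was 17.1, 18.2 and 14.1 CPM with siPool 1 and 24.3, 22.2 and 21.9 CPM with siPool 2, against 25.7, 20.7 and 23.5 CPM with the non-targeting pool. The siPool 1 values of HERC5 lay below all others, at a change of -0.49 ± 0.13 from the non-targeting pool that did not pass (adjusted p = 0.0612). With the replicate block HERC5 was called lower for siPool 1. Among the pathway lists, TMEM173 (0.67 ± 0.14, adjusted p = 0.0300) and TRIM25 (0.34 ± 0.07, adjusted p = 0.0306) were higher with both siPools, 2 of 12 tested sensing genes, and TRIM14 (-0.46 ± 0.11, adjusted p = 0.0459) was lower, 1 of 27 tested further induced genes. Antigen processing, receptors and kinases, and feedback genes had 0 called of 9, 8 and 6 tested, where 1.20% of all genes were called higher and 0.821% lower.

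The third question was what LDB1 knockdown did in K562. With 1 library per group there is no test, and a gene was counted when its log2 ratio of (TPM + 1) to the control shRNA was at least 1 with equal sign in both shRNA libraries and its highest TPM was at least 5. TPM is scaled to a fixed library total and is a value per length. Of the 21 members in the table, 20 reached 5 TPM, 6 were at least 2-fold higher in both libraries and 0 lower, where 8.94% of the 12445 genes at 5 TPM were higher and 2.21% lower. The labels do not say how the 13707 genes of the table were chosen. The 6 are named for their values. The median log2 ratio of the 20 members at 5 TPM was 0.69 with LDB1 shRNA 1 and 0.58 with LDB1 shRNA 2, against 0.18 and 0.13 over the genes at 5 TPM, and both LDB1 shRNA libraries share the 1 control library. The 8 erythroid markers summed to 2341 and 3039 TPM with LDB1 shRNAs 1 and 2, against 6043 TPM with the control shRNA. Of the 5 T cell markers CD3D was the 1 listed, at 174 and 185 TPM with the LDB1 shRNAs and 27.5 TPM with the control, and of the 4 monocyte markers LYZ, at 63.9 and 55.8 TPM with the LDB1 shRNAs and 39.8 TPM with the control. The part of these markers in the member ratios was not tested.

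GBP2 was 24.1 and 22.5 TPM with LDB1 shRNAs 1 and 2 and 0.728 TPM with the control shRNA, log2 ratios of 3.86 and 3.77. IFI16 was 5.47 and 3.76 TPM with the LDB1 shRNAs and 0.236 TPM with the control shRNA, log2 ratios of 2.39 and 1.94. These were the 2 members with the largest ratios, and both started under 1 TPM. LGALS3BP was 15.8 and 11.7 TPM with the LDB1 shRNAs and 4.78 TPM with the control. RSAD2 was 5.86 and 4.45 TPM with the LDB1 shRNAs and 1.26 TPM with the control. IFIT3, at 11.0 and 10.4 TPM with the LDB1 shRNAs and 3.64 TPM with the control, and PARP14, at 16.5 and 15.6 TPM with the LDB1 shRNAs and 7.10 TPM with the control, completed the 6. ISG20, an RNA exonuclease, passed 2-fold in both libraries but stayed under 5 TPM, at 2.98 and 2.26 TPM with the LDB1 shRNAs and 0.235 TPM with the control. ISG15 alone was lower in both, at 20.0 and 22.0 TPM with the LDB1 shRNAs and 40.6 TPM with the control shRNA, log2 ratios of -0.99 and -0.86. IFI35 (18.7 and 14.1 TPM, control 8.04 TPM) and IFI6 (24.9 and 18.1 TPM, control 10.9 TPM) passed 2-fold with LDB1 shRNA 1 only. The transcription factors had log2 ratios of 0.18 to 0.71. BST2 was 534 and 443 TPM with the LDB1 shRNAs and 413 TPM with the control, and IFITM1, the highest member per length, 1509 and 1433 TPM with the LDB1 shRNAs and 1229 TPM with the control. Among the pathway genes, JAK1, the kinase of the interferon receptors, was 55.0 and 55.2 TPM with the LDB1 shRNAs and 22.6 TPM with the control shRNA, and APOL1 was 71.5 and 53.8 TPM with the LDB1 shRNAs and 15.5 TPM with the control.

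**Figure D5:**
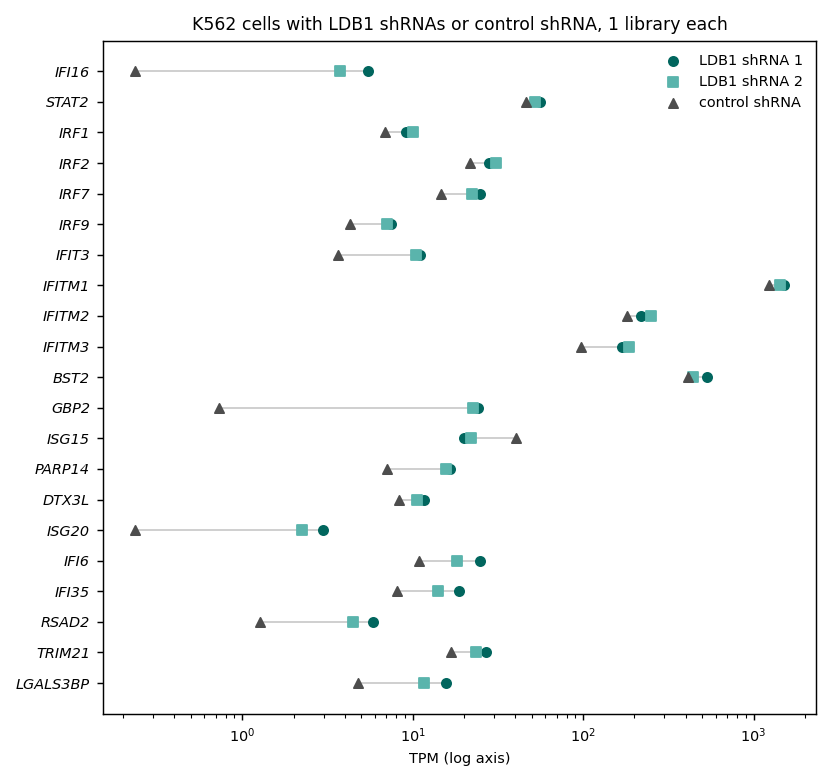
TPM on a log axis of the 21 members in the K562 LDB1 shRNA table, with LDB1 shRNA 1 (dark green circles), LDB1 shRNA 2 (light green squares) and the control shRNA (grey triangles), 1 library each. The control lies left of both LDB1 shRNA libraries for 20 members, farthest for GBP2 (24.1 and 22.5 TPM with the LDB1 shRNAs against 0.728 TPM), and right of them for ISG15.

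The 3 experiments were also set side by side by their called members. The 2 K562 experiments overlapped in the RNA they lowered. LMO2 was 44.2 and 46.2 TPM with LDB1 shRNAs 1 and 2 and 131 TPM with the control shRNA. LDB1 RNA changed by -0.89 ± 0.17 in the degron lines on day 4 (SE, limma adjusted p = 0.002). In HEL, LMO2 and LDB1 were not called with both TAL1 siPools (edgeR adjusted p = 0.986 and 0.784). Of the 15 members called higher in the degron lines on day 4 and the 6 at least 2-fold higher with LDB1 shRNAs, IFI16, IFIT3 and LGALS3BP were in both, 20% of the first list and 50% of the second. BST2 and LGALS3BP were in both the degron list and the list of 3 members called with both TAL1 siPools, 13.3% of the first and 66.7% of the second. LGALS3BP was the 1 member in all 3 lists. IFIT2, SAMD9L and TRIM22 are counted in the 15 but were in neither of the other lists. IFI16 is counted in the 15 as well, although its day 4 test is not read. IFIT3 did not pass the K562 filter on the control lines alone. Of 15 degron members, DDX58, IFIT2, PARP9, SAMD9, SAMD9L and TRIM22 were not among the 21 members of the LDB1 table, and GBP5, called in HEL, was at most 0.193 FPKM in the K562 degron set. These lists come from different tests and thresholds, and the difference between experiments was not tested. The same overlaps over all genes were not computed, so the percentages have no background to be set against.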

How the data were processed

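PolyA RNA was sequenced in 24 K562 degron-set, 9 HEL and 3 K562 LDB1 shRNA libraries. The authors deposited FPKM for the K562 degron set, raw counts for HEL and TPM for the LDB1 shRNAs. FastQC, STAR, featureCounts and hg19 are named in the submitters' processing notes, without versions. The 47 members and the pathway lists were chosen with earlier results of these data known.

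K562 log2(FPKM + 1) was fitted with limma 3.58.1 (trend and robust) over 12 line-by-day groups, for the 15348 genes that reached 1 FPKM in 2 or more libraries. HEL counts were fitted with edgeR 4.0.16 (TMM, quasi-likelihood, filterByExpr, 16688 genes), with DESeq2 1.42.0 as an alternative, in R 4.3.3. Benjamini-Hochberg adjustment ran over all tested genes at 0.05. LDB1 TPM had 1 library per group and no test. FPKM steps gave whole reads for 99.9% of 11070 low genes (tolerance 0.02 reads). Both fitting procedures were tested on simulated data.

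Members called in the degron or HEL comparisons were described by library, otherwise the highest member of a role, with at most 4 genes per pathway list. The members past 2-fold with LDB1 shRNAs and other members given by value were named after their values were seen. Same-numbered K562 libraries deviated together (correlations of 0.119 to 0.662 over 66 group pairs, above a threshold of 0.1), so the replicate number was taken to pair them. Alternatives were another pseudocount, other filters, another scaling, the replicate block, single control or degron lines, other tools and leaving out each library. RefSeq sequences are of GRCh38.p14, and no coordinates were converted from hg19.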

Additional observations from a re-analysis of the deposited data

Results flagged for a closer look

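IFIT2 differed between the TAL1 siPools in HEL. It was 3.86, 5.95 and 4.08 CPM with siPool 1 and 1.69, 1.86 and 1.13 CPM with siPool 2, a difference of 1.57 ± 0.28 log2 units (SE, edgeR adjusted p = 0.0104). IFIT2 was higher in 3 of 3 siPool 1 libraries than in any siPool 2 library. GBP1 differed in the same direction, by 1.04 ± 0.21 log2 units (SE, edgeR adjusted p = 0.0181), with 35.2, 28.9 and 24.8 CPM with siPool 1 and 18.5, 13.9 and 11.0 CPM with siPool 2. Both siPools target TAL1, and why they differed was not tested.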

How the results depend on the processing

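Depth limited the low K562 members, with a median of 11 reads per library for IFIT2 and 14 for SAMD9L. Counts of called members moved as follows, and the cause was not tested. In K562, the replicate block gave 1 member on day 1 instead of 0 and 14 on day 0 instead of 6, the filter on control-line libraries gave 8 on day 4 instead of 16, and no filter gave 1 for the difference between degron lines instead of 0. In HEL the numbers under DESeq2, no filter, the replicate block and bio rep 2 and 3 only were 6, 8, 13 and 12 for both siPools (3 in the fit reported), 11, 13, 19 and 17 for siPool 1 (6), 2, 3, 6 and 7 for siPool 2 (1), and 7, 4, 11 and 9 for siPool 1 minus siPool 2 (2). The bio rep 2 and 3 setting and the control-line filter were chosen after seeing the data. More of all genes were called too. With both siPools 1.20% of all genes were higher and 0.821% lower in the fit reported, 2.94% and 1.80% under DESeq2, 1.37% and 0.818% with no filter, 7.12% and 7.48% with the block, and 6.42% and 6.27% with bio rep 2 and 3 only. With siPool 1 the shares higher and lower were 4.31% and 2.81% under DESeq2 and 2.01% and 1.29% with no filter. They were 8.49% and 8.81% with the block and 8.73% and 7.31% with bio rep 2 and 3 only. With siPool 2 they were, in that order, 1.35% and 1.35%, 0.711% and 0.565%, 4.97% and 5.18%, and 4.77% and 5.03%. For siPool 1 minus siPool 2 they were 3.21% and 2.24%, 1.33% and 0.980%, 7.48% and 7.09%, and 8.40% and 6.97%. GBP4, GBP1, IFITM3 and RSAD2 were among the members the block added for both siPools, and HERC5 was called lower for siPool 1. The lowest of the 9 HEL pair correlations, 0.0865, fell just under the threshold of 0.1 used for pairing, so HEL numbers were not taken to pair the libraries. The highest was 0.363, the 3 pairs of bio rep 1 gave 0.316 to 0.363, and 6 of 9 libraries correlated best with their own number. These values do not settle whether HEL numbers pair the libraries. Leaving out each library gave 12 to 19 members for day 4, 4 to 7 for day 0, 6 to 10 for LMO2 control minus parental, 1 to 4 for both HEL siPools, 3 to 7 for siPool 1, 0 to 2 for siPool 2 and 0 to 5 for their difference, and 0 for day 1, both control-line comparisons and the difference between degron lines. The share of all genes is not given for those fits, so these ranges cannot be told from a general change in calls. The K562 block changed no other call than those given beside the results. No direction of a called member reversed under any alternative run. Of the alternative values of members called in the fit reported, 1047 kept the call and 158 did not, and members that gained a call are not in this tally.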
